A study of Mus with 9 samples.

Results

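Wnt ligands, their receptors and their extracellular and nuclear modulators were examined in the kidneys of aging mice. The members were the protein-coding genes of the deposited table whose symbols belong to 8 families, namely the Wnt ligands, the Frizzled receptors, the secreted Frizzled-related proteins, the Dickkopf proteins, the R-spondins, their receptors Lgr4, Lgr5 and Lgr6, the axins, and the TCF/LEF transcription factors. By this rule, which used names and no measured value, 51 of the 54532 genes in the table were members. Of these, 32 passed the filter on low counts and were tested, among 15902 genes tested in all. The other 19 are given by their counts.

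Kidney RNA of 9 male C57BL/6 mice was sequenced, 1 library from each mouse and 3 mice in a group. One kidney had been removed from every mouse at 18 months of age. The 18 mo mice were killed 1 week after this surgery, the 21 mo mice were given saline intraperitoneally every day until about 21 months of age, and the 21 mo/O304 mice were given O304, an activator of the energy-sensing kinase AMPK, at 10 mg/kg/d in the same way. Age, time since surgery and daily injection therefore cannot be told apart between the 18 mo group and the others. No younger mice and no mice with both kidneys were part of this sequencing. The comparisons were 21 mo against 18 mo, for the change over the last months of life studied, and 21 mo/O304 against 21 mo, for the treatment, with 21 mo/O304 against 18 mo beside them. These comparisons share libraries and are not independent of each other.

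Wnt proteins are secreted, lipid-modified ligands. They bind Frizzled receptors together with the co-receptors Lrp5 and Lrp6, which stops the axin-based complex from destroying β-catenin, so that β-catenin enters the nucleus and acts with TCF/LEF factors on target genes. Other Wnt proteins, such as Wnt5a, mostly signal without β-catenin, through cell polarity and movement. Secreted Frizzled-related proteins and Dickkopf proteins restrain the pathway outside the cell, whereas R-spondins, through Lgr4, Lgr5 and Lgr6, keep Frizzled receptors at the cell surface. In the kidney, Wnt9b and Wnt4 are known for building the nephron, Wnt7b for shaping the medulla, and renewed Wnt signalling is known in injured and fibrotic kidneys.

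Sequencing depth was alike, with 15636378 to 18396725 counts on genes per library, so that 1 count was worth 0.0458 to 0.0669 CPM (counts scaled to library size after TMM normalization, which adjusts for library composition). Markers of the nephron were present in every library. Replicate 3 of the 21 mo group stood apart, since its 6 proximal tubule markers summed to 1040 CPM, against 4318 to 12341 CPM in the other 8 libraries. Slc14a2, a urea transporter of the inner medulla, was at 61.7 CPM in replicate 1 of the 18 mo group and at 60.2 and 50.6 CPM in replicates 2 and 3 of the 21 mo group, but at 0 to 1.67 CPM in the other 6 libraries. Libraries were less alike in the 21 mo group, where their log2 CPM correlated with a mean r of 0.924, than in the 18 mo group (0.979) and the 21 mo/O304 group (0.975). In bulk RNA, a gene that is lower per cell and a gene whose cells are fewer cannot be told apart, which holds for every value that follows.

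Most of the members' summed FPKM came from a few abundant genes. On the scale of FPKM, which corrects for gene length and so allows genes to be compared, the mean over the 9 libraries was 33.7 for Lgr4, 29.8 for Sfrp1, 18.3 for Fzd4, 18.3 for Fzd1 and 11.1 for Axin1. These were the 5 members with a mean above 10 FPKM, and the first 4 of them held 61.6% of the summed mean FPKM of all members. These most abundant members were receptors, an antagonist and a scaffold protein, whereas the highest ligands were Wnt5b at 2.08, Wnt5a at 1.91 and Wnt7b at 1.80 FPKM. Only 19 of the 51 members, 4 of them ligands, had a mean above 1 FPKM.

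**Figure D1:**
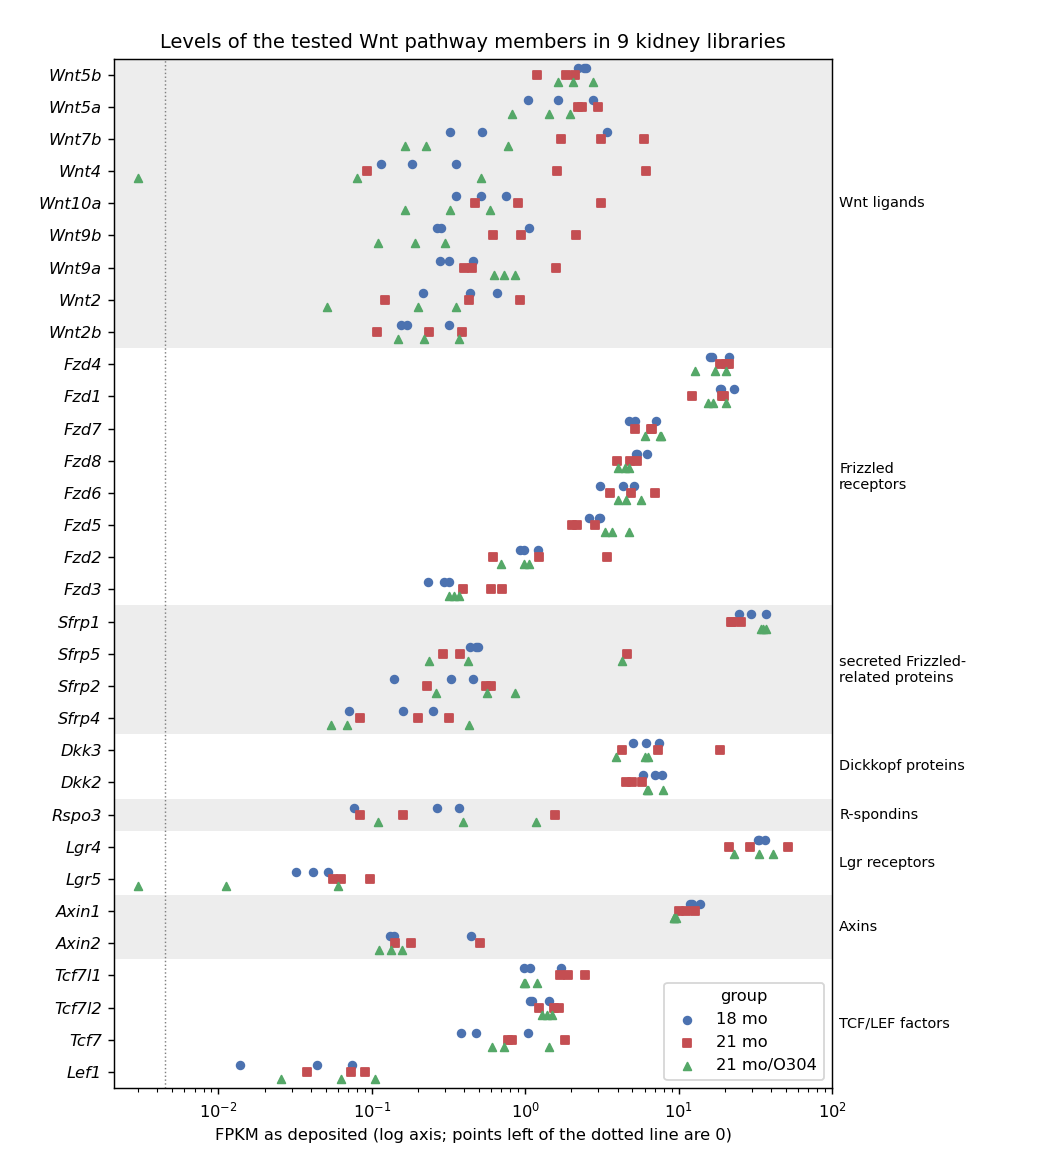
FPKM as deposited, on a log axis, of the 32 tested members in each of the 9 libraries, with 1 point per library, coloured and shaped by group, and the members ordered by family. Lgr4, Sfrp1, Fzd4, Fzd1 and Axin1 have the highest means, and the Wnt ligands lie below 10 FPKM in every library. Dkk3 reaches 18.6 FPKM in replicate 3 of the 21 mo group.

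Among the members with too few counts to test were 10 of the 19 Wnt ligands. Wnt8a, Rspo2 and Rspo4 had no count in any library, and 0 of 153709359 counts allows a level of up to 0.0195 CPM over the 9 libraries. The highest count in any library was 2 for Wnt3 and for Wnt3a, 4 for Wnt1 and for Wnt8b, 11 for Wnt10b, 19 for Wnt16, 24 for Wnt6 and 40 for Wnt11. It was 4 for Fzd9, 2 for Fzd10, 2 for Dkk1, 1 for Dkk4, and 13 each for Dkkl1 and Lgr6. Dkk1, the best known Dickkopf inhibitor of Lrp6, was thus barely detectable at this depth, as were the classical β-catenin ligands Wnt1, Wnt3 and Wnt3a. Only Wnt7a, with 106 counts in 1 library, and Rspo1, with up to 55, exceeded these numbers.

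Several Wnt genes lie in old pairs on the chromosomes, and in these data the levels of neighbours differed in some pairs but not in all. In the coordinates of the table (GRCm38), 4 pairs of members lay within 50000 bases of each other. Wnt9b (chr11:103727364-103749821, minus strand) is 24328 bases from Wnt3, yet Wnt9b reached 220 counts in a library and Wnt3 only 2. Wnt9a (chr11:59306928-59333552, plus strand) is 16175 bases from Wnt3a and reached 120 counts against 2. Wnt10a (chr1:74791516-74804179, plus strand) is 6193 bases downstream of Wnt6, and both were highest in replicate 3 of the 21 mo group, at 7.97 and 1.10 CPM. Wnt10b and Wnt1, 11706 bases apart on chromosome 15, were both near 0.

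Between 21 mo and 18 mo mice no member passed an adjusted p of 0.05 in the edgeR quasi-likelihood test with Benjamini-Hochberg adjustment over all genes, in which 0.0189% of all genes tested passed. Fitted values of the members leaned towards the 21 mo group, with 24 of 32 higher and 8 lower, and their median was 0.39 on the log2 scale, against 0.034 over all genes tested. At an unadjusted p under 0.05, 3 members were higher (Fzd3, Tcf7l1 and Wnt4) and 2 lower (Sfrp1 and Dkk2), where 14.0% and 12.0% of all genes were. In 2 tested members, Fzd3 and Lgr5, every 21 mo library lay above every 18 mo library, and in 2, Wnt5b and Dkk2, every one lay below, which are smaller shares than the 13.5% and 15.3% of all genes tested. Wnt6, with too few counts to test, had at most 5 counts in the 18 mo and at least 5 in the 21 mo libraries. The groups were apart in CPM (at most 0.283 against 0.334 or more) only by the scaling to library size.

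The medians of the families differed, which was not tested. Of the 9 ligands tested, 8 were fitted higher at a median of 1.20 on the log2 scale, and of the 4 TCF/LEF factors, 4 were, with a median of 0.65. The 8 Frizzled receptors tested had a median of 0.15, with 5 fitted higher. The 6 secreted antagonists tested (Sfrp and Dkk) had a median of 0.44, with 4 fitted higher. Replicate 3 of the 21 mo group was the library with the highest level for 16 of the 32 tested members, or 50%, where it was for 28.9% of all genes tested. Without that library the members' median was 0.21, and without it, replicate 2 of the same group and replicate 1 of the 18 mo group, the libraries rich in Slc14a2, it was 0.046.

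Between 21 mo/O304 and 21 mo mice again no member passed (edgeR, adjusted p), and of all genes 0% did. The fitted values leaned the other way, with 25 of 32 members lower and 7 higher, and their median was −0.16 on the log2 scale, against −0.019 over all genes. Without the 3 libraries rich in Slc14a2 the median was 0.012. At an unadjusted p under 0.05, 7 members were lower (Wnt7b, Wnt9b, Wnt10a, Wnt4, Tcf7l1, Fzd3 and Axin1) and 3 higher (Fzd5, Sfrp1 and Dkk2), where 12.4% and 8.27% of all genes were. The libraries of the groups did not overlap for 6 tested members that were lower (Wnt5a, Wnt7b, Wnt9b, Fzd3, Tcf7l1 and Axin1) and for 3 that were higher (Fzd5, Sfrp1 and Dkk2), or 18.8% and 9.38% of the members tested, beside 10.5% and 10.8% of all genes tested. Wnt6, which was not tested, had at most 3 counts in a library with O304 and at least 5 in the 21 mo group. Wnt11, not tested either, had 4 counts in replicate 1 of both groups. At 0.233 CPM with O304 and 0.268 CPM in the 21 mo group, these differed only by the scaling to library size.

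Between 21 mo/O304 and 18 mo mice no member and 0% of genes passed in edgeR. At an unadjusted p under 0.05, 1 member was higher (Fzd5) and 2 lower (Axin1 and Fzd8), where 4.33% and 5.33% of all genes were. The groups did not overlap for 3 members that were higher (Wnt9a, Fzd3 and Fzd5) and 2 that were lower (Axin1 and Fzd8), beside 13.2% and 13.3% of all genes. The median log2 fold change of the members was −0.079.

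limma-trend on log2(FPKM + 1) tested only genes with a mean of at least 0.5 FPKM, or 14335 genes and 23 members, without Fzd3. It called 3 genes in 21 mo against 18 mo and 0 in 21 mo/O304 against 21 mo, as many as edgeR, and no member. DESeq2 and limma voom called more genes, members among them. DESeq2 called 1 member (Fzd3) in 21 mo against 18 mo, where it called 12.3% of all genes, and 5 members (Fzd5 and Sfrp1 higher, Tcf7l1, Wnt7b and Wnt9b lower) in 21 mo/O304 against 21 mo, where it called 6.07%. limma voom with sample quality weights, which lets libraries differ in their spread, called 15 members beside 52.9% of all genes, and 13 beside 41.1%. Without replicate 1 of the 21 mo group, edgeR called 2 members (Fzd3 and Wnt4) beside 25.4% of all genes, and 10 members beside 23.1%. Apart from the calls by DESeq2 in 21 mo/O304 against 21 mo and without replicate 1 in the same comparison, these shares of members were below or close to those of all genes.

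**Figure D2:**
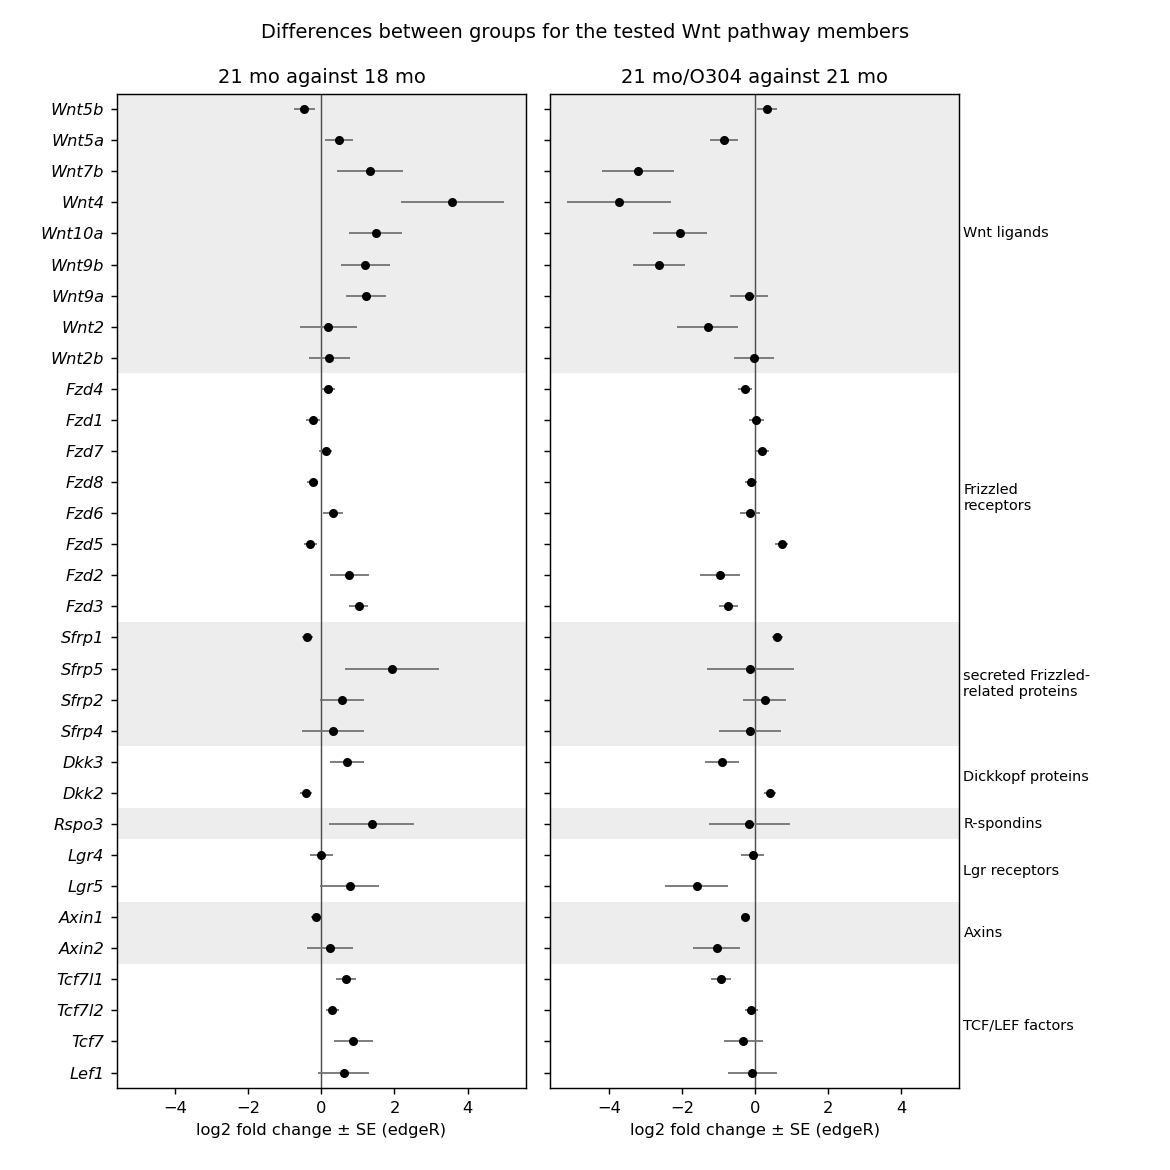
log2 fold change of each tested member in 21 mo against 18 mo (left) and 21 mo/O304 against 21 mo (right), with the edgeR estimate as a point and its SE as a bar, members ordered by family as in the plot of levels. On the right, the ligands Wnt4, Wnt7b, Wnt9b and Wnt10a lie furthest from 0 and have wide bars, on the left Wnt4 and Sfrp5 do, and most receptors lie within about 1 of 0 in both.

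Among the ligands, Wnt7b (chr15:85535437-85582473, minus strand) had one of the widest ranges. It was at 17.5, 1.60 and 2.66 CPM in replicates 1 to 3 of the 18 mo group, at 8.70, 15.9 and 30.2 CPM in the 21 mo group and at 3.90, 1.13 and 0.828 CPM in the 21 mo/O304 group. All 21 mo libraries were thus above all O304 libraries, while replicate 1 of the 18 mo group reached into the 21 mo range. On the log2 scale the difference was 1.33 (SE 0.90, edgeR adjusted p = 0.366) in 21 mo against 18 mo, and −3.22 (SE 0.99, edgeR adjusted p = 0.176) in 21 mo/O304 against 21 mo. The former was 3.08 without replicate 1 of the 18 mo group and 0.75 without replicate 3 of the 21 mo group. Against the 18 mo group the O304 mice differed by −1.88 (edgeR adjusted p = 0.573), but by −0.12 without replicate 1 of the 18 mo group.

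Wnt9b, the ureteric bud ligand that starts nephron formation, was at 5.02, 1.29 and 1.24 CPM in the 18 mo group, at 2.88, 4.38 and 10.1 CPM in the 21 mo group and at 1.40, 0.894 and 0.509 CPM in the 21 mo/O304 group. It showed the same ordering as Wnt7b, with replicate 1 of the 18 mo group apart from the other two. As a log2 fold change this was 1.20 (SE 0.67, edgeR adjusted p = 0.280) in 21 mo against 18 mo and −2.62 (SE 0.72, edgeR adjusted p = 0.175) with O304. The former became 2.18 without replicate 1 of the 18 mo group and 0.51 without replicate 3 of the 21 mo group. Against the 18 mo group it was −1.42, and −0.44 without replicate 1 of that group.

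The 3 libraries with the inner medullary marker Slc14a2 at 50.6 to 61.7 CPM were among the 4 with the most Wnt7b and the 4 with the most Wnt9b. The other library among those 4, replicate 1 of the 21 mo group, had 8.70 CPM of Wnt7b and 2.88 CPM of Wnt9b with only 1.67 CPM of Slc14a2. The 4 papilla and medullary markers (Slc14a2, Akr1b3, Fxyd4 and Tagln) summed to between 65.3 and 151 CPM in 18 mo mice, 42.7 and 209 CPM in 21 mo mice and 47.6 and 75.3 CPM in 21 mo/O304 mice. Aqp2, the water channel of the collecting duct, was at 325, 109 and 118 CPM in the 18 mo group, at 193, 328 and 151 CPM in the 21 mo group and at 120, 75.7 and 78.2 CPM with O304. The 9 markers of thick limb, distal tubule and collecting duct, Aqp2 among them, went both ways. In 21 mo against 18 mo, 4 were fitted higher and 5 lower, and with O304, 6 were higher and 3 lower. In replicate 1 of the 18 mo group, 8 of the 32 tested members were over 1.5 times both other libraries of the group (Wnt2, Wnt4, Wnt5a, Wnt7b, Wnt9b, Axin2, Lef1 and Tcf7l1), against 2 in replicate 2 and 1 in replicate 3. How much of the differences in Wnt7b and Wnt9b goes with the part of the kidney sampled was not tested. With the 3 libraries rich in Slc14a2 left out, which leaves 1 library in the 21 mo group, O304 mice differed from 21 mo mice by −2.14 on the log2 scale for Wnt7b and −1.60 for Wnt9b.

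**Figure D3:**
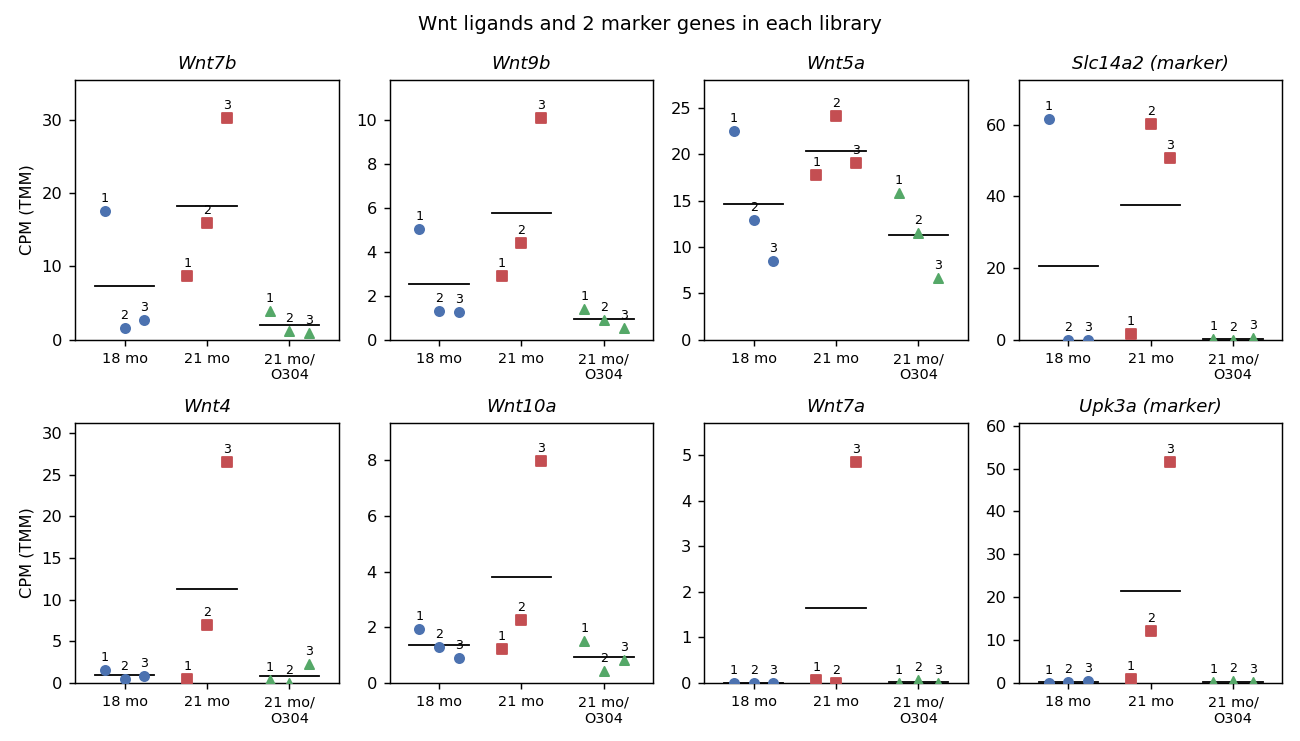
TMM-normalized CPM, on linear axes from 0, of 6 Wnt ligands and of the marker genes Slc14a2 (inner medulla) and Upk3a (urothelium), with 1 point per library, numbered by replicate, and a line at each group's mean. Wnt7b and Wnt9b were higher in replicate 1 of the 18 mo group than in replicates 2 and 3, as was Slc14a2, and Wnt4, Wnt10a, Wnt7a and Upk3a were highest in replicate 3 of the 21 mo group.

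Wnt5a (chr14:28504750-28527448, plus strand), the ligand best known for signalling without β-catenin, was at 22.5, 12.9 and 8.43 CPM in the 18 mo group, at 17.8, 24.2 and 19.1 CPM in the 21 mo group and at 15.8, 11.4 and 6.62 CPM in the 21 mo/O304 group. Every O304 library was below every 21 mo library, and the 18 mo libraries spanned both. It differed by a log2 fold change of 0.48 (SE 0.39, edgeR adjusted p = 0.447) in 21 mo against 18 mo and −0.85 (SE 0.39, edgeR adjusted p = 0.253) with O304, and the former was 0.92 without replicate 1 of the 18 mo group. An exact permutation test, two-sided, gave p = 0.1 for the latter, the smallest value that 3 libraries against 3 allow.

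Its close relative Wnt5b (chr6:119432531-119544347, minus strand), the ligand with the highest FPKM, went the other way. It was at 6.69, 6.72 and 6.05 CPM in the 18 mo group, at 5.02, 5.80 and 3.30 CPM in the 21 mo group and at 5.58, 7.57 and 4.46 CPM in the 21 mo/O304 group. The 18 mo libraries were all above the 21 mo libraries, and the O304 libraries overlapped with both groups. edgeR fitted a log2 fold change of −0.47 (SE 0.28, edgeR adjusted p = 0.312) in 21 mo against 18 mo, and −0.28 without replicate 3 of the 21 mo group. Also listed in the table is Fbxl14 within the span of Wnt5b, and Gm2670 within that of Wnt5a, and since no source used here says whether counting used strand, reads of such overlapping genes may have been counted on either.

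Wnt4 (chr4:137277489-137299726, plus strand), which drives the mesenchyme of the forming nephron to become epithelium, had the largest fitted differences of all members. It stood at 1.55, 0.493 and 0.792 CPM in the 18 mo group, at 0.401, 6.93 and 26.6 CPM in the 21 mo group and at 0.349, 0 and 2.23 CPM in the 21 mo/O304 group. The 21 mo mean thus rested on replicates 2 and 3, while replicate 1 was below every 18 mo library. On the log2 scale the difference was 3.58 (SE 1.41, edgeR adjusted p = 0.155) in 21 mo against 18 mo and −3.73 (SE 1.43, edgeR adjusted p = 0.205) with O304. Without replicate 3 of the 21 mo group these were 1.94 and −2.10, and with the 3 libraries rich in Slc14a2 left out they turned to −0.68 and 1.06.

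Wnt10a was at 1.92, 1.29 and 0.905 CPM in the 18 mo group, at 1.20, 2.27 and 7.97 CPM in the 21 mo group and at 1.51, 0.417 and 0.828 CPM in the 21 mo/O304 group. As a log2 fold change this was 1.48 (SE 0.72, edgeR adjusted p = 0.224) in 21 mo against 18 mo and −2.05 (SE 0.74, edgeR adjusted p = 0.194) with O304, 0.33 and −0.91 without replicate 3 of the 21 mo group, and 0.13 and −0.38 without the 3 libraries rich in Slc14a2. Wnt7a, which was not tested, had 106 counts or 4.86 CPM in that same library, and at most 1 count in any other. Wnt9a was at 1.11, 1.54 and 0.962 CPM in the 18 mo group, at 1.54, 1.36 and 5.50 CPM in the 21 mo group and at 2.501, 2.15 and 2.93 CPM in the 21 mo/O304 group. Unlike the other ligands, it was higher in every O304 library than in every 18 mo library, by 1.06 on the log2 scale (SE 0.55, edgeR adjusted p = 0.575).

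Replicate 3 of the 21 mo group, and to a lesser degree replicate 2, also held markers of urothelium, the lining of the renal pelvis. The 6 urothelial markers (Upk1a, Upk1b, Upk2, Upk3a, Krt5 and Krt20) summed to between 0.986 and 2.97 CPM in the 18 mo mice, to 4.15, 52.2 and 214 CPM in the 21 mo mice, and to 1.40 to 2.87 CPM in the 21 mo/O304 group. Of these, 5 were highest in replicate 3 of the 21 mo group, and Krt20 in its replicate 2. The order of Wnt4 within the 21 mo group was that of these markers, but replicate 1, with 4.15 CPM of them, had less Wnt4 than any 18 mo library. The 8 fibroblast markers summed to 117, 486 and 1097 CPM in the same 3 libraries, against 148 to 223 CPM in the 18 mo and 93.5 to 243 CPM in the 21 mo/O304 group. Their part in the values of Wnt4, Wnt7a and Wnt10a was not tested.

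Summed over the 19 ligands, the level was 12.6, 6.41 and 5.71 FPKM in the 18 mo group, 8.19, 12.9 and 26.4 FPKM in the 21 mo group and 7.001, 5.87 and 5.51 FPKM in the 21 mo/O304 group. The most abundant ligand changed with the library. It was Wnt5b in 5 libraries, including all those with O304, Wnt7b in replicate 1 of the 18 mo and replicate 2 of the 21 mo group, Wnt5a in replicate 1 of the 21 mo group and Wnt4 in its replicate 3. Wnt7b made up 27.2% of the summed ligand FPKM in replicate 1 of the 18 mo group and 5.01% and 9.22% in the other two, 21.0% to 24.3% in the 21 mo group, and 2.98% to 11.02% with O304.

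The Frizzled receptors were steadier than the ligands. Fzd4 (chr7:89404355-89413134, plus strand), the receptor of the vascular ligand norrin as well as of Wnt proteins, was at 148, 113 and 112 CPM in the 18 mo group, at 148, 142 and 131 CPM in the 21 mo group and at 140, 120 and 89.3 CPM with O304. Fzd1 (chr5:4753839-4758035, minus strand) was at 99.9, 81.2 and 80.8 CPM, at 83.0, 53.1 and 86.8 CPM and at 73.0, 66.9 and 88.6 CPM in the same order. Both overlapped between all groups, with edgeR adjusted p-values of 0.410 or more in the 3 comparisons for Fzd4 and 0.479 or more for Fzd1.

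Fzd3 (chr14:65192449-65262463, minus strand), a receptor of the cell polarity branch, came closest of all members to the threshold. It was at 3.96, 4.13 and 3.05 CPM in the 18 mo group, at 5.22, 7.90 and 9.44 CPM in the 21 mo group and at 4.88, 4.17 and 4.52 CPM in the 21 mo/O304 group. Every 21 mo library was above every library of both other groups, and every O304 library was just above every 18 mo library. It differed by a log2 fold change of 1.02 (SE 0.26, edgeR adjusted p = 0.0801) in 21 mo against 18 mo, −0.73 (SE 0.26, edgeR adjusted p = 0.193) in 21 mo/O304 against 21 mo, and 0.28 (SE 0.27, edgeR adjusted p = 0.781) in 21 mo/O304 against 18 mo. With replicate 3 of the 21 mo group omitted, the first 2 of these were 0.80 and −0.53, and omitting the 3 libraries rich in Slc14a2 gave 0.53 and −0.20. Gm27263 and Gm9086 overlap it in the table.

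Fzd5 (chr1:64730558-64737751, minus strand), a receptor of the β-catenin branch, had the opposite pattern. It was at 18.9, 21.8 and 21.6 CPM in the 18 mo group, at 20.4, 14.4 and 15.6 CPM in the 21 mo group and at 26.4, 23.7 and 33.7 CPM in the 21 mo/O304 group. The O304 libraries were above all others. edgeR fitted a log2 fold change of −0.31 (SE 0.18, edgeR adjusted p = 0.303) in 21 mo against 18 mo, 0.73 (SE 0.18, edgeR adjusted p = 0.175) with O304 and 0.43 (SE 0.18, edgeR adjusted p = 0.492) in 21 mo/O304 against 18 mo. The first 2 were −0.093 and 0.46 without the 3 libraries rich in Slc14a2.

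Of the other Frizzled receptors, Fzd8 was at 18.3 to 21.6 CPM in the 18 mo group and at 13.8 to 16.3 CPM with O304, without overlap, which is −0.36 on the log2 scale (SE 0.15, edgeR adjusted p = 0.507). Fzd2 was at 13.01 CPM in replicate 3 of the 21 mo group and at 2.34 to 4.66 CPM in the other 8 libraries. Its log2 fold change of 0.77 in 21 mo against 18 mo (SE 0.53, edgeR adjusted p = 0.383) turned to −0.18 without that library. Fzd6 and Fzd7 ranged from 15.3 to 34.9 and from 22.5 to 35.9 CPM, with overlap in every comparison.

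The most abundant antagonist, Sfrp1 (chr8:23411502-23449632, plus strand), which binds Wnt proteins and Frizzled receptors outside the cell, was lowest in the 21 mo group. It was at 113, 166 and 133 CPM in the 18 mo group, at 115, 98.9 and 101 CPM in the 21 mo group and at 155, 167 and 161 CPM in the 21 mo/O304 group. The O304 libraries all exceeded the 21 mo libraries, and replicate 1 of the 18 mo group was within the 21 mo range. On the log2 scale the difference was −0.39 (SE 0.15, edgeR adjusted p = 0.157) in 21 mo against 18 mo and 0.62 (SE 0.15, edgeR adjusted p = 0.175) with O304. The latter stayed between 0.58 and 0.67 when any 1 of the 9 libraries was left out, and was 0.49 without the 3 libraries rich in Slc14a2.

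Dkk2, which binds Lrp5 and Lrp6 and can act for or against the pathway, was likewise lowest in the 21 mo group. It was at 22.8, 26.3 and 29.7 CPM in the 18 mo group, at 17.3, 18.9 and 22.4 CPM in the 21 mo group and at 23.6, 23.96 and 30.1 CPM in the 21 mo/O304 group. The 21 mo libraries were below all others. As a log2 fold change this was −0.43 (SE 0.16, edgeR adjusted p = 0.141) in 21 mo against 18 mo and 0.40 (SE 0.16, edgeR adjusted p = 0.213) with O304. Dkk3 (chr7:112116017-112159057, minus strand), the family member that does not bind Lrp6 like the others, was at 21.4, 17.3 and 25.7 CPM in the 18 mo group, at 14.7, 25.3 and 65.0 CPM in the 21 mo group and at 13.6, 20.7 and 21.7 CPM in the 21 mo/O304 group. Only replicate 3 of the 21 mo group was outside the range of the 18 mo and O304 libraries. Its log2 fold change of 0.71 in 21 mo against 18 mo (SE 0.47, edgeR adjusted p = 0.353) turned to −0.12 without that library, and that of −0.91 with O304 (SE 0.47, edgeR adjusted p = 0.290) to −0.09.

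**Figure D4:**
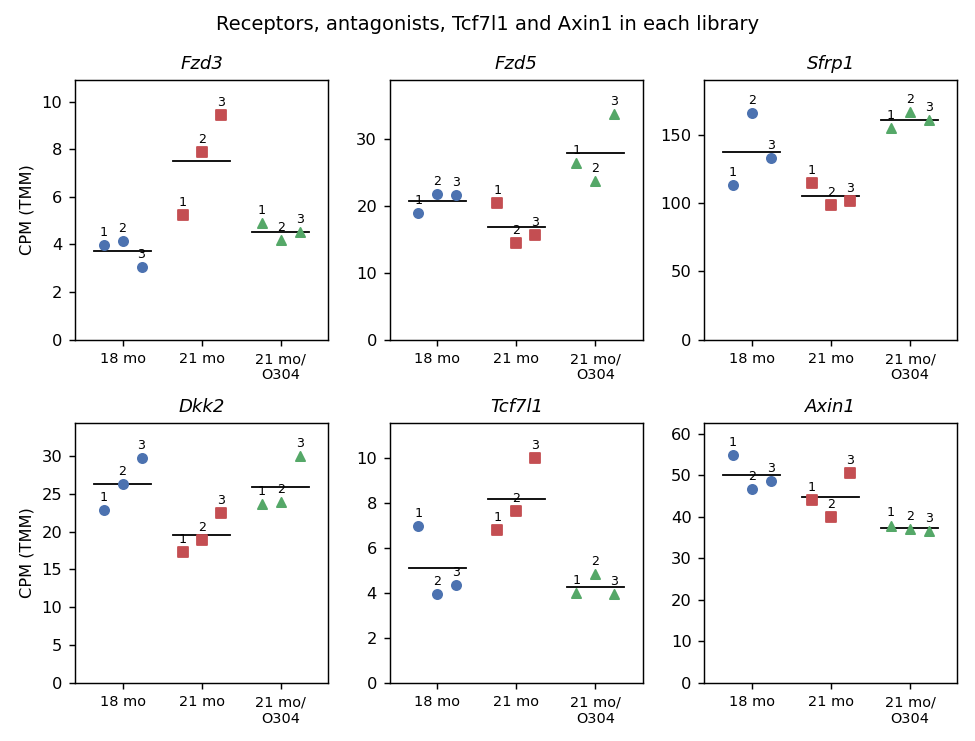
TMM-normalized CPM, on linear axes from 0, of Fzd3, Fzd5, Sfrp1, Dkk2, Tcf7l1 and Axin1, with 1 point per library, numbered by replicate, and a line at each group's mean. The 21 mo and 21 mo/O304 libraries do not overlap in any of the 6 panels, with 21 mo higher for Fzd3, Tcf7l1 and Axin1 and lower for Fzd5, Sfrp1 and Dkk2.

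The R-spondins and Sfrp5 shared another pattern. Rspo3 was at 0.248, 1.17 and 0.849 CPM in the 18 mo group, at 0.268, 0.511 and 5.04 CPM in the 21 mo group and at 0.349, 1.25 and 3.76 CPM in the 21 mo/O304 group. Sfrp5 was at 0.867 to 0.962 CPM in the 18 mo group, at 0.736, 0.568 and 9.16 CPM in the 21 mo group and at 0.465, 0.834 and 8.40 CPM with O304. For Rspo1, not tested, the values were at most 0.283 CPM except for 2.52 CPM in replicate 3 of the 21 mo and 2.80 CPM in replicate 3 of the 21 mo/O304 group. The same 2 libraries were thus the highest for all 3 genes, across the treatment. They were also those with the most Dcn, a fibroblast gene, at 169 and 103 CPM against 23.7 to 66.4 CPM in the others. The 8 fibroblast markers, Dcn among them, summed to 1097 and 243 CPM in these 2 libraries. Their sum was 486 CPM in replicate 2 of the 21 mo group and 223 CPM in replicate 3 of the 18 mo group. The part of stromal or capsular tissue in these values was not tested.

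Of the receptors for R-spondins, Lgr4 (chr2:109917647-110014257, plus strand) was the member with the highest FPKM, whereas Lgr5 and Lgr6 were close to the limit of detection. Lgr4 was at 201, 218 and 203 CPM in the 18 mo group, at 314, 178 and 130 CPM in the 21 mo group and at 251, 140 and 204 CPM with O304. Its group means were 207 ± 9.46, 207 ± 95.5 and 198 ± 55.6 CPM (SD, n = 3 mice each), and the groups overlapped in all 3 comparisons, with an edgeR adjusted p of 0.919 or more. Lgr5, a stem cell marker and target of β-catenin, had at most 18 counts. It was at 0.557, 0.431 and 0.339 CPM in the 18 mo group, at 0.669, 1.02 and 0.596 CPM in the 21 mo group and at 0, 0.119 and 0.637 CPM with O304. The 21 mo libraries were above all 18 mo libraries, at a log2 fold change of 0.78 (SE 0.81, edgeR adjusted p = 0.562), and with O304 it was −1.60 (SE 0.87, edgeR adjusted p = 0.307). A930009A15Rik overlaps Lgr5 in the table.

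Axin1 (chr17:26138688-26195811, plus strand), the scaffold of the complex that destroys β-catenin, was lowest with O304. It was at 54.9, 46.6 and 48.5 CPM in the 18 mo group, at 43.9, 39.8 and 50.6 CPM in the 21 mo group and at 37.9, 37.0 and 36.6 CPM in the 21 mo/O304 group. All O304 libraries were below all others. It differed by a log2 fold change of −0.16 (SE 0.12, edgeR adjusted p = 0.410) in 21 mo against 18 mo, −0.27 (SE 0.12, edgeR adjusted p = 0.240) in 21 mo/O304 against 21 mo and −0.43 (SE 0.12, edgeR adjusted p = 0.345) in 21 mo/O304 against 18 mo. With replicate 3 of the 21 mo group omitted, the first 2 were −0.27 and −0.16. In the last comparison it was the only member that limma voom with sample quality weights called, beside 2.61% of all genes.

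The TCF/LEF factors were represented mainly by Tcf7l1 and Tcf7l2, with mean levels of 1.44 and 1.36 FPKM. Tcf7l1 (chr6:72626378-72789254, minus strand), which mostly represses target genes, was at 6.999, 3.94 and 4.36 CPM in the 18 mo group, at 6.82, 7.67 and 10.03 CPM in the 21 mo group and at 4.01, 4.83 and 3.95 CPM in the 21 mo/O304 group. The 21 mo libraries were above all O304 libraries, and replicate 1 of the 18 mo group was within their range. edgeR fitted a log2 fold change of 0.68 (SE 0.27, edgeR adjusted p = 0.160) in 21 mo against 18 mo and −0.94 (SE 0.28, edgeR adjusted p = 0.175) with O304. Several predicted genes overlap Tcf7l1 in the table. Tcf7l2 (chr19:55741810-55933654, plus strand) was at 12.9, 9.92 and 9.73 CPM in the 18 mo group, at 11.04, 15.004 and 14.1 CPM in the 21 mo group and at 13.4, 12.5 and 11.6 CPM with O304, with a log2 fold change of 0.30 in 21 mo against 18 mo (SE 0.18, edgeR adjusted p = 0.316).

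Axin2, Tcf7, Lgr5 and Lef1 are themselves turned on by β-catenin and serve as its read-outs. Axin2 (chr11:108920349-108950783, plus strand) was at 2.54, 0.739 and 0.792 CPM in the 18 mo group, at 0.803, 1.02 and 2.89 CPM in the 21 mo group and at 0.756, 0.894 and 0.637 CPM with O304. A single library was high in each of the 18 mo and 21 mo groups, and both were rich in Slc14a2. The other library rich in Slc14a2, replicate 2 of the 21 mo group, had only 1.02 CPM of Axin2. On the log2 scale the difference was 0.23 (SE 0.63, edgeR adjusted p = 0.839) in 21 mo against 18 mo, and −0.58 without replicate 3 of the 21 mo group. With O304 it was −1.05 (SE 0.65, edgeR adjusted p = 0.356), and −0.25 without the same library. Tcf7 was at 1.05, 2.77 and 1.30 CPM, at 2.21, 2.10 and 4.99 CPM and at 1.98, 3.87 and 1.66 CPM in the 3 groups, with a log2 fold change of 0.87 in 21 mo against 18 mo (SE 0.53, edgeR adjusted p = 0.324) and 0.32 without replicate 3 of the 21 mo group. Lef1 stayed under 1 CPM in all 9 libraries and overlapped between all groups.

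The other genes of the pathway were taken from lists of 64 genes, of which 61 were tested. None passed the adjusted threshold in edgeR. In 21 mo against 18 mo, 10 were higher and 6 lower at an unadjusted p under 0.05, where 14.0% and 12.0% of all genes were. In 21 mo/O304 against 21 mo, 3 were higher and 14 lower, where 8.27% and 12.4% of all genes were. Ctnnb1, which encodes β-catenin itself, was at 374, 359 and 391 CPM in the 18 mo group, at 413, 401 and 369 CPM in the 21 mo group and at 337, 367 and 361 CPM with O304. Its log2 fold change was 0.074 (SE 0.14, edgeR adjusted p = 0.761) and −0.15 (SE 0.14, edgeR adjusted p = 0.528) in the 2 comparisons, which concerns its RNA and not its protein.

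Among co-receptors and Wnt-binding proteins, 2 of 10 tested were higher and 1 lower in 21 mo against 18 mo at an unadjusted p under 0.05, close to the 14.0% and 12.0% of all genes. The glycoproteins Cd44 and Gpc3 had the smallest p. Cd44 was at 3.03 to 6.45 CPM in the 18 mo group, at 10.4, 39.0 and 36.9 CPM in the 21 mo group and at 5.52 to 12.1 CPM with O304, with a log2 fold change of 2.45 in 21 mo against 18 mo (SE 0.53, edgeR adjusted p = 0.0631) that was 0.70 without the 3 libraries rich in Slc14a2. Gpc3 was at 23.7 to 47.2 CPM, at 53.0 to 157 CPM and at 28.9 to 50.9 CPM in the 3 groups, and differed by 1.81 (SE 0.42, edgeR adjusted p = 0.0702) and, with O304, by −1.50 (SE 0.42, edgeR adjusted p = 0.175), values that were 0.55 and −0.41 without the same 3 libraries. Ptk7, a co-receptor of the cell polarity branch, differed by −1.96 with O304 (SE 0.52, edgeR adjusted p = 0.175), by −1.03 without replicate 3 of the 21 mo group and by −0.44 without the 3 libraries. It was at 42.9 CPM in replicate 3 of the 21 mo group, where Dkk3 and Fzd2 were also highest, and at 4.95 to 15.7 CPM elsewhere.

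Among 18 cytoplasmic components tested, 3 were higher and 2 lower in 21 mo against 18 mo at an unadjusted p under 0.05, close to the 14.0% and 12.0% of all genes, and 5 were lower with O304, where 12.4% of all genes were. Gsk3a, a kinase that marks β-catenin for destruction, was at 51.3 to 54.1 CPM in the 18 mo and 36.5 to 46.1 CPM in the 21 mo group, and differed by −0.39 (SE 0.12, edgeR adjusted p = 0.0992), or −0.16 without the 3 libraries rich in Slc14a2. Nkd2, a feedback inhibitor, differed by 3.04 (SE 0.99, edgeR adjusted p = 0.107), and by 0.83 without replicate 3 of the 21 mo group. With O304, Apc, another scaffold of the destruction complex, differed by −0.45 (SE 0.11, edgeR adjusted p = 0.175) and Nkd1 by −1.67 (SE 0.57, edgeR adjusted p = 0.187). For Nkd1 this was −0.66 without replicate 3 of the 21 mo group and −0.43 without the 3 libraries rich in Slc14a2. Of 11 nuclear cofactors tested, 0 were higher and 1 lower in 21 mo against 18 mo at an unadjusted p under 0.05. Of all genes, 14.0% and 12.0% were. With O304, 1 cofactor was higher and 1 lower, where 8.27% and 12.4% of all genes were. Among them, Ctnnbip1, which keeps β-catenin from binding TCF factors, was at 25.8 to 28.7 CPM in the 18 mo group. It was at 15.5 to 19.1 CPM in the 21 mo group and at 21.4 to 21.7 CPM with O304, without overlap between any 2 groups. Its log2 fold change was −0.65 (SE 0.12, edgeR adjusted p = 0.0626) and 0.30 (SE 0.12, edgeR adjusted p = 0.214), the latter 0.17 without the 3 libraries. The corepressor Tle1, another nuclear cofactor, differed by −0.44 with O304 (SE 0.18, edgeR adjusted p = 0.220), or by −0.27 without the same libraries. Of 5 secreted inhibitors tested outside the members, 0 were higher and 0 lower in 21 mo against 18 mo at an unadjusted p under 0.05. With O304, 0 were higher and 1 lower, Sostdc1, which differed by −0.99 (SE 0.34, edgeR adjusted p = 0.186), or by −0.59 without the same libraries.

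Genes widely used as read-outs of β-catenin and TCF/LEF went both ways. Of 17 tested outside the members, 13 were fitted higher in 21 mo against 18 mo, and at an unadjusted p under 0.05, 5 were higher and 2 lower, beside 14.0% and 12.0% of all genes. Myc, the growth-promoting transcription factor, was at 5.20, 3.20 and 4.47 CPM in the 18 mo group, at 10.03, 25.5 and 23.4 CPM in the 21 mo group and at 6.86, 6.62 and 7.70 CPM with O304. No 2 groups overlapped, and the log2 fold change was 2.19 (SE 0.35, edgeR adjusted p = 0.0626) and −1.48 (SE 0.34, edgeR adjusted p = 0.175). Without the 3 libraries rich in Slc14a2 these were 1.38 and −0.50. Mmp7, a matrix protease of injured tubules, was at 0, 0.123 and 0.170 CPM in the 18 mo group, which is no more than 3 counts in a library, at 0.803, 8.75 and 120 CPM in the 21 mo group and at 0.756, 0.179 and 0 CPM with O304. Against a floor of 3 counts per library, its mean was at least 240-fold higher in the 21 mo than in the 18 mo group, a mean that rests on replicate 3.

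Sp5 and Notum, targets that feed back on the pathway, had the reverse order. Sp5, which represses other targets, was at 26.5, 31.0 and 28.1 CPM in the 18 mo group, at 21.4, 8.35 and 7.97 CPM in the 21 mo group and at 25.9, 25.6 and 31.9 CPM with O304. Notum, the secreted enzyme that removes the lipid from Wnt proteins, was at 14.2, 18.3 and 13.2 CPM, at 9.10, 5.91 and 1.42 CPM and at 14.7, 15.4 and 11.1 CPM. In both genes all 21 mo libraries were below all others. The log2 fold change in 21 mo against 18 mo was −1.19 for Sp5 (SE 0.35, edgeR adjusted p = 0.0904) and −1.49 for Notum (SE 0.52, edgeR adjusted p = 0.121), and with O304 it was 1.15 (edgeR adjusted p = 0.176) and 1.34 (edgeR adjusted p = 0.206). Without the 3 libraries rich in Slc14a2, the values were −0.47 and −0.80 in the former comparison and 0.38 and 0.60 in the latter. Their order within the 21 mo group, with replicate 3 lowest, was that of the proximal tubule markers, which summed to 9526, 4318 and 1040 CPM in replicates 1 to 3, and the part of tubule content in these values was not tested.

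Fst, which encodes the activin antagonist follistatin and is another reported target, was high in the same 4 libraries as Wnt7b. It was at 14.9, 0.555 and 0.679 CPM in the 18 mo group, at 8.03, 9.09 and 15.3 CPM in the 21 mo group and at 0.465, 0.119 and 1.34 CPM with O304. As for Wnt7b, replicate 1 of the 18 mo group and all 21 mo libraries were above the other libraries, including replicate 1 of the 21 mo group, in which Slc14a2 was low. The log2 fold change with O304 was −4.08 (SE 1.30, edgeR adjusted p = 0.180), and −3.65 with the 3 libraries rich in Slc14a2 left out.

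**Figure D5:**
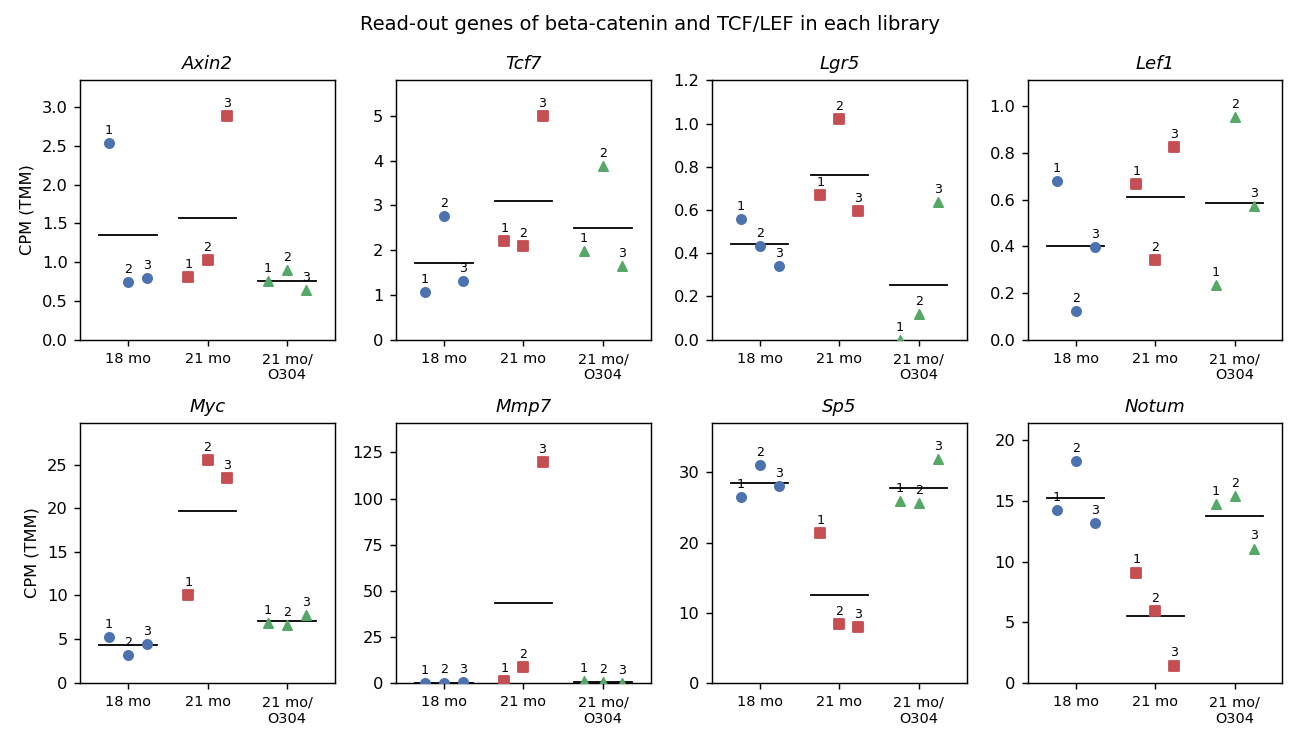
TMM-normalized CPM, on linear axes from 0, of the members Axin2, Tcf7, Lgr5 and Lef1 and of Myc, Mmp7, Sp5 and Notum, all used as read-outs of β-catenin and TCF/LEF, with 1 point per library, numbered by replicate, and a line at each group's mean. Every 21 mo library is above the other groups for Myc and below them for Sp5 and Notum, whereas Axin2, Tcf7, Lgr5 and Lef1 overlap between the 21 mo and 21 mo/O304 groups.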

How the data were processed

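RNA of 9 kidneys was converted into libraries with the NEBNext Ultra RNA kit and sequenced by the authors, who aligned the reads with HISAT2 2.0.5 to GRCm38 and counted them on genes with featureCounts 1.5.0-p3, per the submitters' processing notes. The deposited counts are raw whole numbers per gene. The deposited FPKM divide them, as the authors made them, by gene length and by 1 number per library that is not its count total. The deposited table also holds the authors' group means and DESeq2 1.20.0 fold changes and p-values, which were not used. Strandedness and the handling of multiply mapped reads are not given in the sources used here.

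Genes were filtered with filterByExpr (minimum count 10, minimum total 15), libraries were normalized by TMM, and all 9 libraries entered 1 model of the 3 group means (6 residual degrees of freedom), tested by quasi-likelihood in edgeR 4.0.16 under R 4.3.3. Tests were two-sided with Benjamini-Hochberg adjustment over all genes tested, and SE is the absolute log2 fold change divided by the square root of F. Single genes were compared by an exact permutation test of mean CPM, which cannot give a p under 0.1 with 3 against 3. A level of 3 counts in every library of a group was taken as the floor. Such limits cover counting error only. DESeq2 1.42.0, limma 3.58.1 and other alternatives were also run. On simulated counts for 21 mo against 18 mo, edgeR recovered 69% of 200 genes changed 4-fold among 15652 tested, with 6.76% of its calls false, and DESeq2 83% among 15902, with 23.5% false. The simulation gave each gene the same spread in all groups, whereas the real 21 mo libraries were less alike than the others. These rates therefore need not hold for the real comparison.

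Members and lists were chosen with earlier results of these data known. Values per library are given for members with an adjusted p under 0.05, for those whose groups did not overlap and differed by at least 0.58 on the log2 scale in either main comparison, and for the 2 highest by mean FPKM in each role (ligands, Frizzled receptors, antagonists, R-spondins with Lgr receptors, axins, TCF/LEF), which names 17 members. Outside the members, up to 2 genes per list with the smallest p were to be named. Of the genes so picked, Lrp5, Kremen1, Wls, Porcn, Wif1, Frzb, Apcdd1, Rnf43, Znrf3 and Cby1 are given no values here. Wnt4, Wnt7a, Wnt9a, Wnt10a, Fzd2, Fzd6, Fzd7, Fzd8, Dkk2, Sfrp5, Rspo1, Tcf7 and Lef1, and Ctnnb1, Sp5 and Fst outside the members, were described after their values were seen. Promoter and protein sequences of the members were not analysed here.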

Additional observations from a re-analysis of the deposited data

How the results depend on the processing

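No member passed the adjusted threshold in any of the 3 comparisons with DESeq2's size factors, with every gene of at least 1 count or only genes of at least 10 counts in every library, with only the 6 libraries compared, or with limma-trend on log2(FPKM + 1) or log2(FPKM + 0.1). The limma-trend fits held only 23 members, and the fit on genes of at least 10 counts in every library held 21. DESeq2 called 1 member in 21 mo against 18 mo and 5 in 21 mo/O304 against 21 mo, and limma voom with sample quality weights called 15, 13 and, in 21 mo/O304 against 18 mo, 1. Leaving out each library in turn gave 0 to 2 members in 21 mo against 18 mo and 0 to 10 in 21 mo/O304 against 21 mo, the most without replicate 1 of the 21 mo group, and 0 in 21 mo/O304 against 18 mo. The members' median ranged from 0.21 to 0.62 and from −0.51 to −0.071 in these fits for the first 2 comparisons, and leaving out one library moved Fzd2 from −0.18 to 1.18, Dkk3 from −0.12 to 1.09 and Axin2 from −0.58 to 1.03 in 21 mo against 18 mo. Without the 3 libraries rich in Slc14a2, an alternative chosen after seeing the data that leaves 1 library in the 21 mo group, whose spread is taken from the other groups, the median in 21 mo against 18 mo was 0.046, Wnt4 turned to −0.68, Fzd2 to −0.62, Dkk3 to −0.55 and Nkd2 to −0.14, and in 21 mo/O304 against 21 mo Wnt4 turned to 1.06 and Dkk3 to 0.35. The cause was not tested. The replicate block called 0 members in each comparison, with medians of 0.54, −0.20 and −0.11. Same-numbered libraries deviated with correlations from −0.13 to 0.17, so the numbers were not taken to pair the mice. With 15636378 counts in the smallest library, differences in members of a few counts were not detectable.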
